A study of Mus musculus with 15 samples.

Results

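The cytotoxic lymphocyte genes described here are 10 genes through which natural killer (NK) cells and CD8 T cells kill other cells: Tbx21, Eomes, Gzma, Gzmb, Gzmk, Prf1, Nkg7, Ifng, Klrk1 and Ncr1. Their members were taken by name, as every non-control probe whose gene name in the array files is 1 of the 10, which gave 13 of 56605 probes. Of those 13 probes, 10 stood well above background on 7 or more of the 15 arrays, and through them 9 of the 10 genes were tested among 22342 genes. Ncr1 was not tested, and its values are given as a description.

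The samples were mammary tumours that arose in MMTV-PyMT mice on the Wsh background (7 arrays) and on the B6 background, C57BL/6 (8 arrays), all taken at 20 weeks of age from mice kept free of specific pathogens. Mice of both backgrounds carried the polyoma middle T transgene, whose MMTV promoter is active in mammary epithelium. Wsh is the usual name of mice with an inversion beside Kit, the receptor of stem cell factor, and adult Wsh mice lack mast cells while T cells and NK cells remain. The labels do not give any other difference between the backgrounds, nor whether each tumour came from a separate mouse, and the p-values describe only the spread between these samples. Each array was hybridised with Cy3-labelled RNA of a whole tumour. In such bulk RNA, fewer lymphocytes and less RNA of a gene in each lymphocyte cannot be told apart.

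Killer lymphocytes store perforin and granzymes in granules. When receptors such as NKG2D meet a stressed or infected cell, the granules fuse with the membrane, perforin opens the target cell's membrane, and granzymes enter and cut proteins inside it. The T-box factors T-bet and Eomesodermin direct the expression of this programme and of interferon gamma, the cytokine that killer cells release in parallel.

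Levels below are log2 signals of a probe relative to the 75th percentile of its own array, and levels of different probes are not compared with each other. Differences are Wsh minus B6 on the log2 scale, each with its standard error (SE) from limma, and a gene is said to have passed when its Benjamini-Hochberg adjusted p over all 22342 genes was under 0.05. Of all genes, 0.38% passed in either direction, 0.107% as higher and 0.273% as lower in Wsh. Among the 9 tested members 1 passed, Gzmk, which was higher in Wsh tumours and met the filter on dim probes only through the Wsh arrays. The difference was above 0 in 8 of the 9 members, where 42.2% of all genes had a difference above 0. The median difference of the members was 0.54, against -0.035 over all genes. That median is the value of Nkg7, which was 0.32 without B6 8. The unadjusted limma p was under 0.05 in 4 members, all higher in Wsh (Gzmk, Tbx21, Eomes and Ifng), against 3.79% of all genes in that direction. These 4 cannot be counted as separate genes beside that share. Gzmk met the filter through Wsh, and Tbx21, Eomes and Ifng followed each other within groups (r between 0.62 and 0.86). The members were also chosen with earlier results of these data known, so the counts describe them and do not test them. The exact two-sided permutation test gave p = 0.000155 for Gzmk, 0.0131 for Tbx21, 0.0222 for Eomes and 0.0637 for Ifng.

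The signal at the 75th percentile ran from 2488 to 3278 on Wsh arrays and from 2322 to 4470 on B6 arrays. Between 56.9% and 69.4% of probes were well above background on Wsh arrays and between 53.7% and 72.1% on B6 arrays. Arrays lay on 2 slides, the first with 4 Wsh and 4 B6 arrays and the second with 3 Wsh and 4 B6 arrays. The 6 epithelial markers were all well above background on every array. Transcripts of skeletal muscle, a tissue next to the mammary gland, stood out on 5 arrays (Wsh 1, 3, 4 and 5 and B6 4). The mean of 9 measured of 11 muscle markers ran from -3.91 to 4.81 on Wsh arrays and from -3.80 to 1.46 on B6 arrays.

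**Figure D1:**
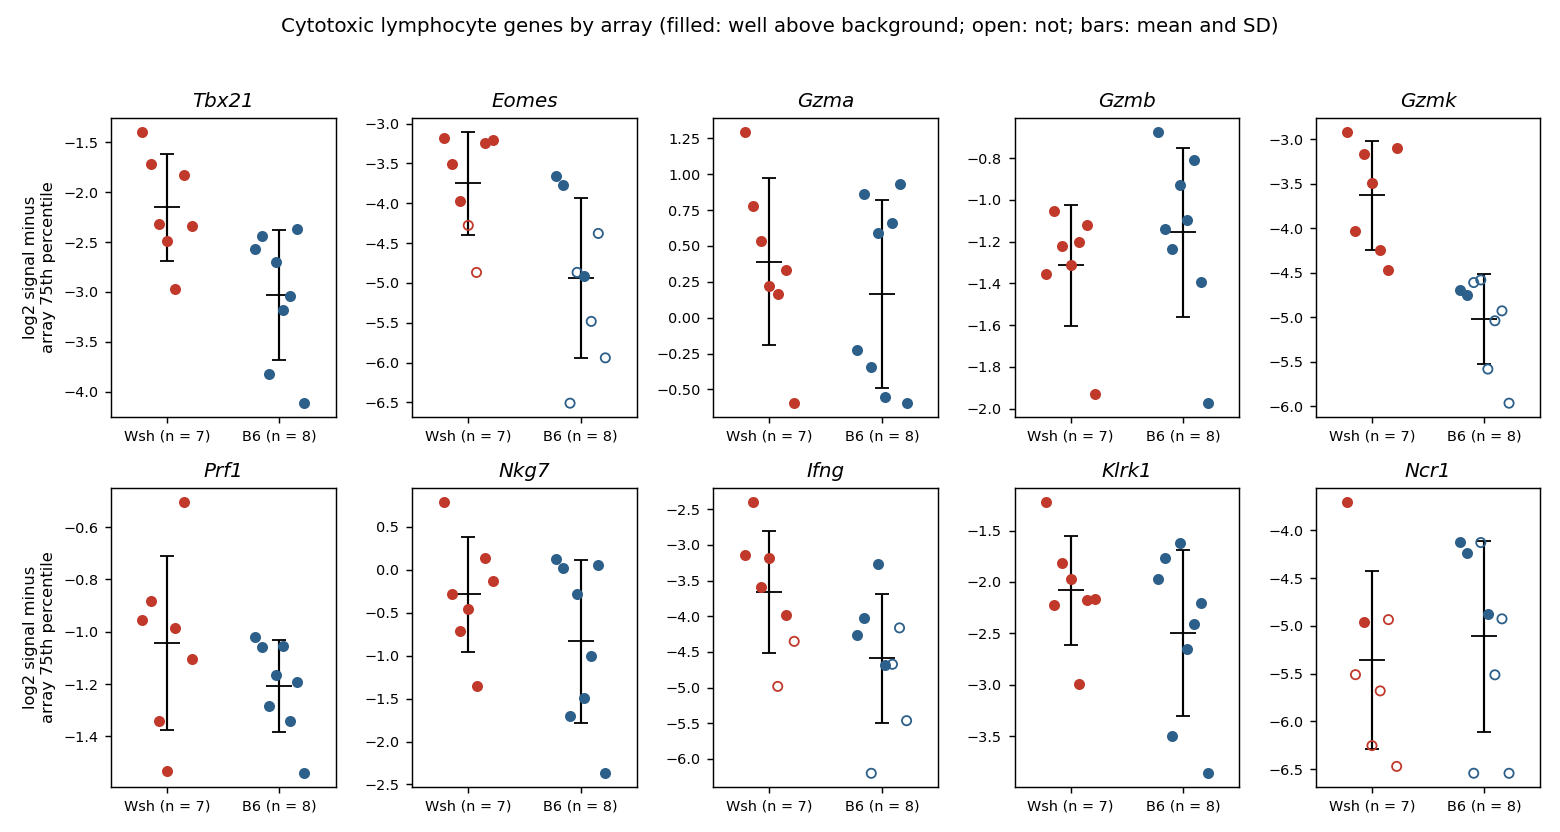
Level of the used probe of each gene on each array (log2 signal minus the array's 75th percentile), with Wsh (n = 7, red) left of B6 (n = 8, blue); filled points are well above background, open points are not, and bars show the mean and SD. The groups are apart in Gzmk, where Wsh arrays lie at -4.47 or higher and B6 arrays at -4.58 or lower, and overlap in the other 9 genes.

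Gzmk encodes granzyme K, a trypsin-like granzyme made by subsets of T cells and NK cells. Its level on the 7 Wsh arrays was -4.47 at the lowest, -3.49 at the median and -2.92 at the highest, and on the 8 B6 arrays -5.97, -4.84 and -4.58. Every Wsh array lay above every B6 array, although the gap between the lowest Wsh array (Wsh 6) and the highest B6 array (B6 4) was small beside the spread within either group. Groups that do not overlap, with Wsh higher, were found in 0.107% of all genes. The mean was -3.63 ± 0.62 (SD, n = 7) in Wsh and -5.02 ± 0.50 (SD, n = 8) in B6, a difference of 1.39 (SE 0.27, 95% interval 0.81 to 1.97, limma adjusted p = 0.0389). The probe was well above background on 7 of 7 Wsh arrays and 2 of 8 B6 arrays, so it met the filter through Wsh, and the size and interval are set against a group mostly not above background. Gzmk stood 67th by p among all genes. The exact two-sided permutation test over all 6435 splits of the arrays gave p = 0.000155, the smallest it can give.

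The Gzmk signal was dim. Before scaling, the processed signal of this probe was 434, 196.3, 329.7, 267, 130.8, 127.3 and 353.2 on Wsh arrays 1 to 7, and 96.01, 85.99, 101.1, 147.5, 54.59, 92.48, 93.7 and 71.41 on B6 arrays 1 to 8, where B6 1 and 2 were those well above background. On the unscaled signal the groups overlapped, since B6 4 was brighter than Wsh 5 and Wsh 6. The size of the difference therefore rests on B6 values near the background, and with normexp background correction it was 0.61 (limma adjusted p = 0.240), against 0.67 in the deposited log2 values (limma adjusted p = 0.0834).

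Gzmk passed in 7 of 31 alternative treatments of the values, with differences between 0.61 and 1.53 that were above 0 in all 31, and limma adjusted p between 0.0110 and 0.524. It passed with slide as a block (1.34, limma adjusted p = 0.0272). Within the slides the difference was 1.26 on the first and 1.44 on the second, neither of which passed (limma adjusted p = 0.363 and 0.524). With 1 array left out at a time, the difference ran from 1.25 to 1.53, and Gzmk passed without Wsh 5 or without Wsh 6 but not without any 1 of the other 13 arrays (limma adjusted p 0.0298 to 0.0987 over the 15). Gzmk correlated with the skeletal muscle mean at r = 0.58 over the 15 arrays, given as a description, and without the 5 arrays with muscle transcripts its difference was 1.22 (limma adjusted p = 0.318).

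**Figure D2:**
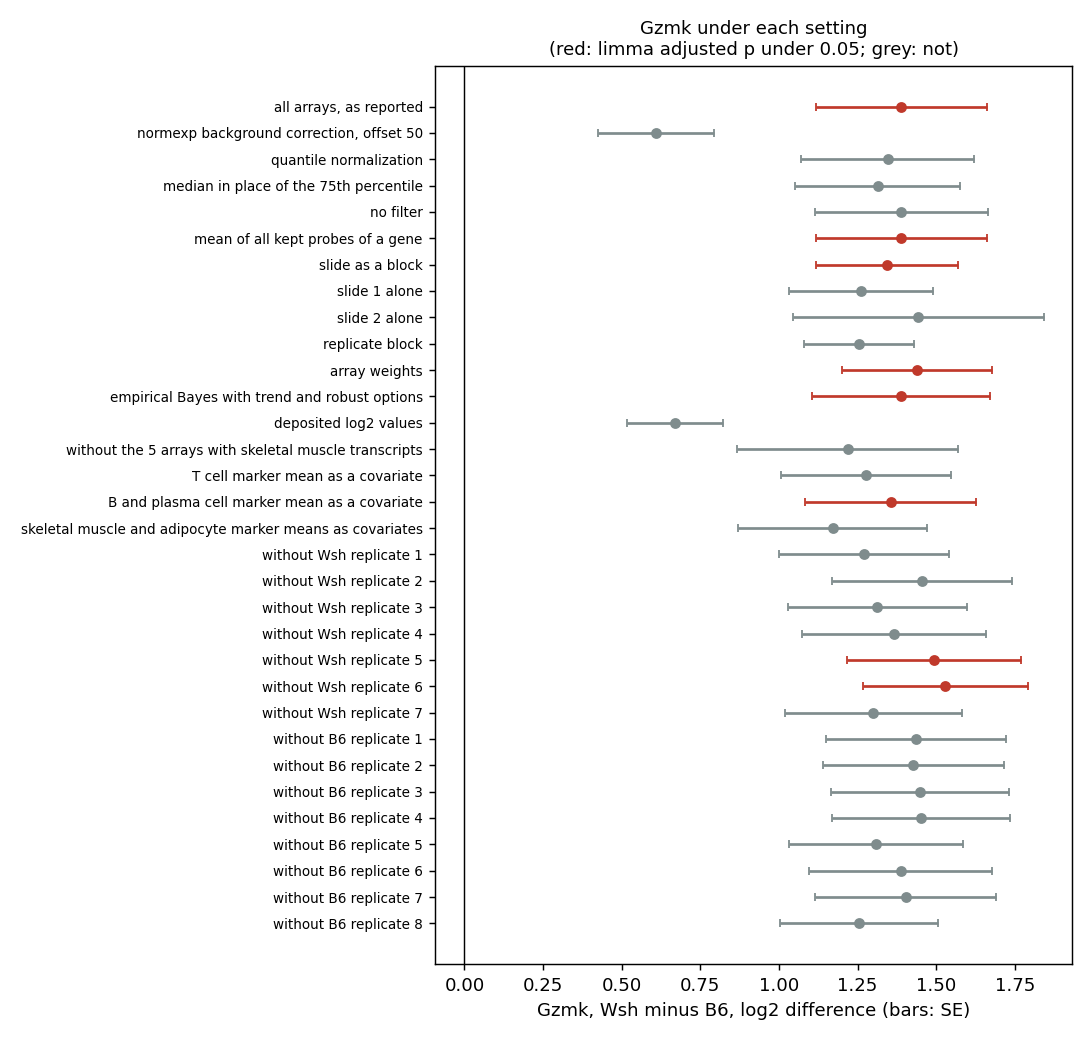
Gzmk difference, Wsh minus B6 (log2; bars, SE), in the reported fit and under each of 31 alternatives, with red points where the limma adjusted p was under 0.05 and grey points where it was not. All points lie above 0, between 0.61 and 1.53, and 7 of the alternatives are red.

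The array holds another probe named Gzmk, which lies at chr13:113962100-113962159 (mm9, minus strand), 284 bases from the probe used, at chr13:113961816-113961875 on the same strand. The files tie the used probe to an Ensembl transcript and the other to the RefSeq transcript of Gzmk. The second probe was not well above background on any of the 15 arrays, so no difference is drawn from it, and the Gzmk result rests on 1 probe. Its sequence is shown because it is the part of Gzmk on the array in which neither group was measured:
Gzmk probe without measured signal: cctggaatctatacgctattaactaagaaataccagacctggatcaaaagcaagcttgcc

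Gzma, which encodes granzyme A, a tryptase that is abundant in killer cell granules, is the neighbour of Gzmk on mouse chromosome 13. Its probe (chr13:113884035-113884094, mm9, minus strand) lies 77.8 kb from that of Gzmk. Gzma was well above background on all 15 arrays. Its level was -0.59 at the lowest, 0.33 at the median and 1.30 at the highest in Wsh, and -0.60, 0.18 and 0.93 in B6. The groups covered nearly the same range, with the highest value in Wsh 1 and the lowest in B6 8. The difference of 0.22 (SE 0.30, 95% interval -0.42 to 0.87, limma adjusted p = 0.838) did not pass. It was 0.49 on the first slide and -0.14 on the second. The other tested genes within 250 kb of Gzmk did not pass either. Esm1, which encodes an endothelial proteoglycan, lay 46.4 kb away with a difference of -0.32 (SE 0.56), and Gpx8, a glutathione peroxidase, had -0.078 (SE 0.34).

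Gzmb encodes granzyme B, which cuts after aspartate and starts apoptosis in the target cell. In mice it is also made by mast cells. Its level was -1.93 at the lowest, -1.22 at the median and -1.05 at the highest in Wsh, and -1.97, -1.12 and -0.67 in B6. Gzmb was thus the tested member with a lower mean in Wsh, and the groups overlapped. The difference was -0.16 (SE 0.18, 95% interval -0.54 to 0.22, limma adjusted p = 0.800) and it stayed between -0.28 and -0.056 over 32 alternatives without passing in any. The mean of 5 measured of 6 mast cell markers ran from -4.37 to -3.70 on Wsh arrays and from -1.75 to 1.76 on B6 arrays, with Mcpt4, Cma1 and Kit past the threshold as lower in Wsh. The part of mast cell transcripts in the Gzmb values was not tested.

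Prf1 encodes perforin, the pore-forming protein of the granules. It varied least of the 10 genes over the 15 arrays, with a range of 1.04. Its level was -1.53 at the lowest, -0.99 at the median and -0.50 at the highest in Wsh, and -1.54, -1.18 and -1.02 in B6. The highest 4 Wsh arrays lay above all B6 arrays, while Wsh 3 and Wsh 4 lay among the lowest of both groups. The difference was 0.16 (SE 0.14, 95% interval -0.12 to 0.45, limma adjusted p = 0.711). It was -0.045 on the first slide and 0.42 on the second.

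Nkg7 encodes a membrane protein of cytotoxic granules that is needed for efficient degranulation. Its level was -1.36 at the lowest, -0.28 at the median and 0.79 at the highest in Wsh, and -2.37, -0.64 and 0.12 in B6. Wsh 1 and B6 8 held the ends of the range, and 3 B6 arrays lay below every Wsh array. The difference was 0.54 (SE 0.40, 95% interval -0.31 to 1.40, limma adjusted p = 0.676). With 1 array left out it ran from 0.32 (without B6 8) to 0.72 (without Wsh 5).

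Of the transcription factors, Tbx21 encodes T-bet, the T-box factor of type 1 immune responses. Its probe (chr11:96959417-96959476, mm9, minus strand) was well above background on all 15 arrays. The level was -2.97 at the lowest, -2.32 at the median and -1.40 at the highest in Wsh, and -4.11, -2.87 and -2.37 in B6. All 7 Wsh arrays lay above the B6 mean and 5 lay above every B6 array, while Wsh 4 and 5 lay within the B6 range. Tbx21 averaged -2.15 ± 0.54 (SD, n = 7) in Wsh and -3.03 ± 0.65 (SD, n = 8) in B6, a difference of 0.88 (SE 0.29, 95% interval 0.26 to 1.497). Over all genes this did not pass (limma adjusted p = 0.265, unadjusted p = 0.00839). The difference was 0.90 and 0.80 on the first and second slide. With 1 array left out it ran from 0.72 (without B6 8) to 1.01 (without Wsh 5).

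Eomes encodes Eomesodermin, the T-box factor of NK cells and of memory and effector CD8 T cells. Its level was -4.87 at the lowest, -3.51 at the median and -3.18 at the highest in Wsh, and -6.51, -4.89 and -3.66 in B6. It was well above background on 5 of 7 Wsh arrays and 3 of 8 B6 arrays, so part of the values in both groups lie at the background. The lowest 4 B6 arrays lay below every Wsh array and the groups overlapped above that. The difference was 1.19 (SE 0.41, 95% interval 0.31 to 2.07), which did not pass (limma adjusted p = 0.291, unadjusted p = 0.0113). With normexp background correction it was 0.45.

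A second Eomes probe is tied to another RefSeq transcript and covers 662 bases of the genome with its 60 bases (chr9:118390460-118391121, mm9, plus strand), so its bases are not contiguous in the genome. It was well above background on 3 of 15 arrays and was not tested. B6 6 stood apart with a level of -2.57, where the other B6 arrays lay at -5.07 or lower and Wsh arrays between -7.02 and -4.30. On B6 6 the used probe lay at -5.48 and was not well above background. Over the 15 arrays the 2 probes had r = 0.0089 (Spearman's rho 0.17). Most values of the second probe lie at the background, so how it relates to the used probe cannot be read from these arrays. The sequence of the second probe is shown because its signal stood apart on B6 6:
Eomes second probe: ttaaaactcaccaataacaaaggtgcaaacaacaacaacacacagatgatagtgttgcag

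Ifng encodes interferon gamma, which raises antigen presentation and activates macrophages. Its level was -4.98 at the lowest, -3.59 at the median and -2.40 at the highest in Wsh, and -6.20, -4.47 and -3.26 in B6. It was well above background on 5 of 7 Wsh and 4 of 8 B6 arrays. Its range over all arrays, 3.81, was the widest of the 10 genes, with Wsh 2 at the top and B6 3 at the bottom, and 3 Wsh arrays lay above every B6 array. On B6 3 the unscaled signal was 33.57 and not well above background, so the width of that range rests on a background value. The difference was 0.93 (SE 0.43, 95% interval 0.025 to 1.83, limma adjusted p = 0.446, unadjusted p = 0.0446). On the first slide it was 1.36 and on the second 0.31.

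Klrk1 encodes NKG2D, the activating receptor of NK cells and CD8 T cells for stress-induced ligands. Its level was -3.00 at the lowest, -2.17 at the median and -1.22 at the highest in Wsh, and -3.86, -2.31 and -1.62 in B6. B6 3 and B6 8 lay below every Wsh array, and the other arrays of the 2 groups were mixed. The difference was 0.42 (SE 0.34, 95% interval -0.30 to 1.13, limma adjusted p = 0.704). With 1 array left out the Klrk1 difference ran from 0.22 (without B6 8) to 0.57 (without Wsh 5). Its 2 probes share the following 20 bases, which are shown because the probes overlap and are not independent measurements:
Klrk1 shared by both probes: CCTTGATTTCCTCCCAGATA
The second probe gave a difference of 0.55 (SE 0.47), and the 2 probes followed each other over the 15 arrays (r = 0.96, Spearman's rho 0.95).

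Ncr1 encodes NKp46, an activating receptor that marks NK cells and some innate lymphoid cells. It was well above background on 2 of 7 Wsh and 3 of 8 B6 arrays. The level was -6.47 at the lowest, -5.51 at the median and -3.70 at the highest in Wsh, and -6.54, -4.90 and -4.12 in B6. The groups covered the same range, and the means were -5.36 ± 0.94 (SD, n = 7) in Wsh and -5.11 ± 1.005 (SD, n = 8) in B6. The exact two-sided permutation test gave p = 0.624 for that difference of -0.25, most of it between values at the background.

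**Figure D3:**
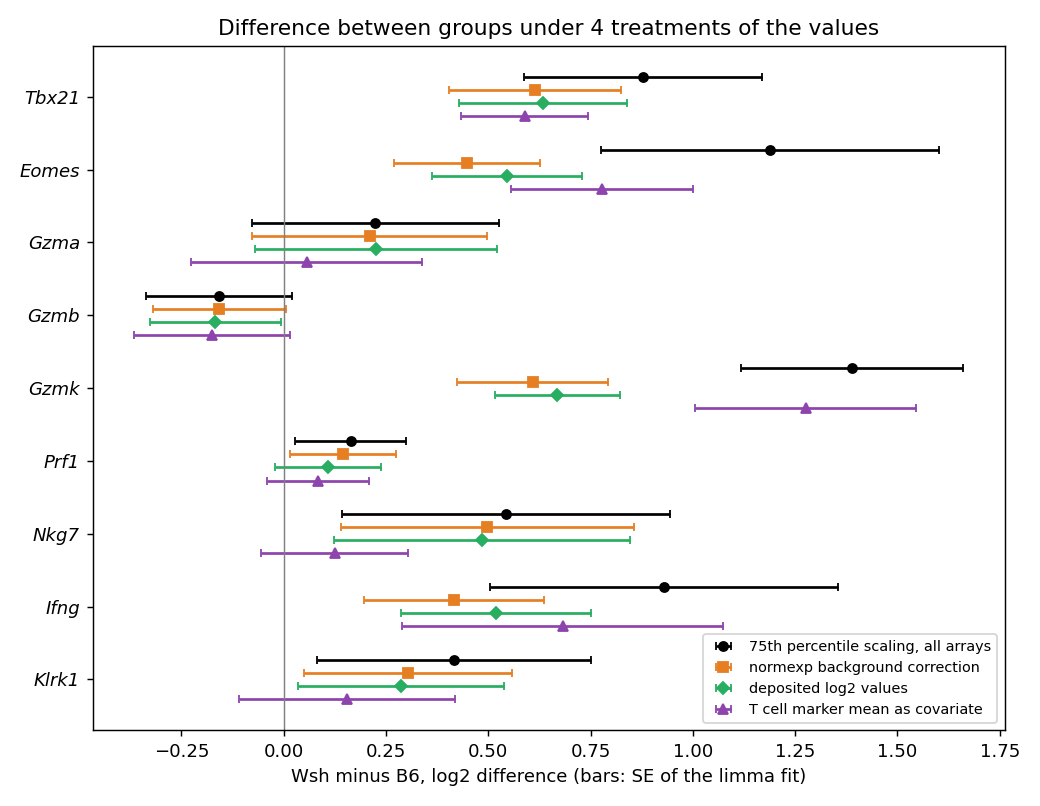
Difference between Wsh and B6 tumours (Wsh minus B6, log2; bars, SE) of the 9 tested genes, with the 75th percentile scaling, normexp background correction, the deposited values and the T cell marker mean as a covariate. Gzmk, Eomes and Ifng, the dim genes, shrink most under normexp correction (0.61, 0.45 and 0.42), and Nkg7 lies at 0.13 with the T cell covariate.

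The arrays at the ends of the range recurred across genes. On the scaled values, B6 8 was the lowest of the 15 arrays in 8 of the 10 genes and among the 3 lowest in all 10, and B6 3 was the lowest in the other two, Eomes and Ifng. Wsh 1 was the highest in 7 of the 10 and among the 3 highest in 9. The place of B6 8 rests on the scaling, since its 75th percentile, 4470, was the highest of all arrays. On the unscaled signal B6 8 was the lowest in 0 of the 10 genes and among the 3 lowest in 6, and B6 3 was the lowest in 7, while Wsh 1 was again the highest in 7. The pairs of members were compared over the 15 arrays after subtracting the group means, as 36 pairs with 100000 permutations and Benjamini-Hochberg adjustment. Pearson's r passed in 14 pairs and Spearman's rho in 13 of those. How many pairs of other genes would pass was not counted. The 14 pairs are therefore not read as particular to these genes.

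All 10 pairs among Tbx21, Eomes, Nkg7, Klrk1 and Ifng passed in Pearson's r, with r between 0.62 and 0.94, and 9 of them in Spearman's rho. This grouping was not part of the plan, so its count describes these pairs and does not test the group. Nkg7 and Tbx21 were closest (r = 0.94, permutation p = 2e-05, adjusted p = 0.00072, Spearman's rho 0.91, permutation p = 2e-05, adjusted p = 0.00072). Without B6 8 and Wsh 5, the 2 arrays farthest from the median of Nkg7, r was 0.89, and within the first and second slide it was 0.94 and 0.97. Nkg7 also followed Klrk1 (r = 0.88, rho 0.84, permutation p = 7e-05 and 0.00065) and Eomes (r = 0.86, rho 0.91, permutation p = 9e-05 and 4e-05). In all 14 pairs r was above 0 on each slide.

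The granule genes did not all share that order. Gzma passed with Tbx21 (r = 0.71), Klrk1 (r = 0.65) and Ifng (r = 0.64), and Gzmk passed with Klrk1 alone (r = 0.63, rho 0.63, permutation p = 0.0109 and 0.00778), which was 0.35 on the first slide. Gzmb and Prf1 passed in 0 of their 8 pairs each, with an unadjusted permutation p under 0.05 in 0 pairs of Gzmb and 2 of Prf1. Whether those correlations differ from the others was not tested.

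**Figure D4:**
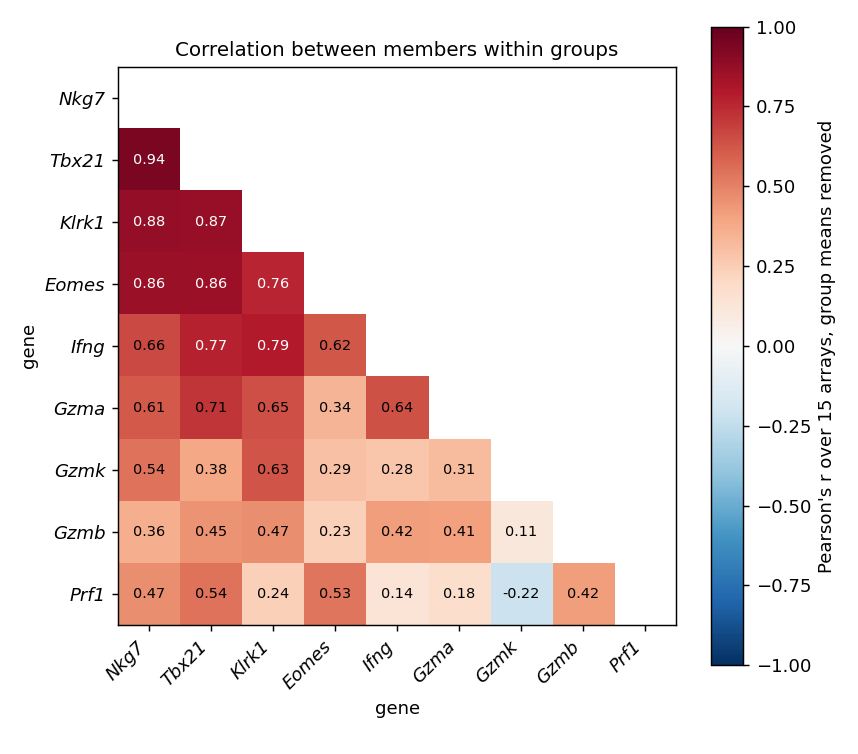
Pearson's r between each pair of the 9 tested genes over 15 arrays, after subtracting the mean of each group; red is above 0 and blue below. The block of Nkg7, Tbx21, Klrk1, Eomes and Ifng holds values from 0.62 to 0.94, and Gzmk, Gzmb and Prf1 have their values in the lower rows, between -0.22 and 0.63.

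Markers of T cells, NK cells and other leukocytes moved with several members. The mean of 13 T cell markers, all measured and 12 of them well above background on every array, ran from -2.41 to 0.95 on Wsh arrays and from -2.57 to 0.20 on B6 arrays. Of these 13 markers, 12 had a difference above 0 and 0 passed in limma (0 also at an unadjusted p under 0.05), with a median difference of 0.70. The mean of 4 measured of 6 NK cell markers ran from -2.80 to -1.002 on Wsh arrays and from -4.13 to -1.58 on B6 arrays, and the other two, Klre1 and Klri2, were not measured. On the scaled values, B6 8 had the lowest T cell and NK cell marker means, and Wsh 1 the highest. As for the members, the place of B6 8 rests on the scaling, since its 75th percentile, 4470, was the highest of all arrays. The mean of 9 measured of 10 B and plasma cell markers ran from -4.74 to 1.25 on Wsh arrays and from -5.03 to -0.13 on B6 arrays. Of the markers measured, 9 of 9 of B and plasma cells, 6 of 7 of dendritic cells and 8 of 9 of macrophages had a difference above 0. In limma 0 of each passed, and an unadjusted p under 0.05 was found in 2 macrophage markers and in 0 of the others. Differences above 0 were not confined to leukocytes. They were found in 9 of 9 skeletal muscle markers (median 3.22) and 9 of 10 adipocyte markers (median 0.82). Of the epithelial markers 0 of 6 were above 0 (median -0.13), and of the mast cell markers 0 of 5. Neutrophil markers were above 0 in 4 of 5.

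As a description over the 15 arrays, which share the tumour as their source, the T cell mean correlated with Nkg7 (r = 0.92, and 0.93 on each slide), Eomes (0.84), Tbx21 (0.84) and Klrk1 (0.71). For Gzmk r was 0.44 and for Gzmb 0.014. The NK cell mean correlated with Nkg7 at 0.92 and with Klrk1 at 0.89. The B and plasma cell mean correlated with Nkg7 at 0.86, Eomes at 0.76, Tbx21 at 0.75 and Prf1 at 0.68, where r of Prf1 with the T cell mean was 0.60. With the T cell mean as a covariate, the differences were 0.59 for Tbx21, 0.78 for Eomes, 0.68 for Ifng, 0.13 for Nkg7, 0.16 for Klrk1 and 1.28 for Gzmk. None of these passed over all genes (limma adjusted p = 0.176 for Tbx21, 0.209 for Eomes and 0.0743 for Gzmk). What part lymphocyte content has in the differences was not tested.

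The genes most like the members were chosen as the 5 with the highest Pearson's r over the 15 arrays with the mean of the 9 tested members. They were Slamf7 (r = 0.97), a receptor of the SLAM family on NK cells and other leukocytes, Hcls1 (0.96), an actin regulator of blood cells, Snx20 (0.96), a sorting nexin, Inpp5d (0.96), which encodes the lipid phosphatase SHIP1, and Wdfy4 (0.96), which dendritic cells need for cross-presentation. For Gzmk the 5 were Tsga10 (r = 0.86), the unnamed transcript AK160964 (0.86), Fyb (0.85), a T cell adaptor, Uckl1 (0.85), a uridine kinase-like protein, and Mcm9 (0.85), a helicase of DNA repair. After subtracting the group means the r of these 5 with Gzmk lay between 0.56 and 0.76, so the shared difference between groups makes up part of the likeness. No p is given, since these genes were picked as the highest of all.

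The other genes of killing and its control were read from gene lists, and no gene of the following 10 lists passed in limma. Of their 101 tested genes, 15 had an unadjusted limma p under 0.05, 12 higher and 3 lower in Wsh, against 2401 of all 22342 genes in either direction. Beyond the 10 members, 8 of 12 other granzymes and granule proteins were tested and 5 had a difference above 0. Gzmc, another granzyme, had 0.77 (SE 0.37), Srgn, the proteoglycan that packs granule contents, 0.32 (SE 0.20), and Serpinb9, which encodes an inhibitor of granzyme B, -0.17 (SE 0.12). In the machinery of granule release, 3 of 9 genes had a difference above 0. Stx11, a syntaxin needed for granule fusion, had 0.37 (SE 0.16), against -0.34 (SE 0.15) for Vamp7 and -0.44 (SE 0.22) for Rab27a, which docks granules at the membrane. Of the death ligands, 3 of 5 were above 0, with 0.37 (SE 0.22) for Fasl and -0.31 (SE 0.22) for Tnfsf10, which encodes TRAIL.

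Receptors and their signalling genes lay mostly above 0. Of 29 other NK cell receptors 18 were tested, 15 of them above 0 with a median of 0.44. Klrg1, an inhibitory receptor of mature killer cells, had 0.80 (SE 0.32). Klra2, of the Ly49 family but not among the NK cell markers used here, had 0.49 (SE 0.20). Which cells of the tumour carried its RNA cannot be told from bulk RNA. Ly49 genes are near copies of each other, so their probes may share signal. All 9 receptor adaptors and kinases were above 0, with a median of 0.46. Among them were Hcst, which encodes DAP10, the adaptor of NKG2D, with 0.46 (SE 0.36), and Syk with 0.88 (SE 0.43), a kinase that B cells and myeloid cells also use.

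The ligands of NKG2D sit on the target cell. Of 9 listed, 5 were tested, all above 0 with a median of 0.64, where 42.2% of all genes were above 0. An unadjusted limma p under 0.05 with Wsh higher was found in 4 of the 5, against 3.79% of all genes, and 0 of the 5 passed. These 4 are all Raet1 genes, whose probes may share signal, so they cannot be counted as 4 separate genes beside that share. Raet1c averaged -2.40 ± 0.33 (SD, n = 7) in Wsh and -3.18 ± 0.46 (SD, n = 8) in B6, a difference of 0.77 (SE 0.20, limma adjusted p = 0.141). Raet1e had 0.69 (SE 0.21), Raet1a 0.64 (SE 0.24) and Raet1b 0.34 (SE 0.12). The Raet1 genes are near-identical copies, so these probes may read each other's transcripts and the values are uncertain for any 1 of them.

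Of the lymphocyte transcription factors beyond Tbx21 and Eomes, 8 of 12 tested were above 0, with 0.60 (SE 0.28) for Tox, 0.48 (SE 0.28) for Runx3, a RUNX factor of CD8 T cells, and -0.26 (SE 0.18) for Id2. Of 11 tested genes of activating cytokines and their receptors 7 were above 0, with 0.68 (SE 0.35) for Il21r and 0.47 (SE 0.23) for Il12rb1. Of 9 lymphocyte chemokines and receptors 8 were above 0, with a median of 0.50. Ccl3 and Ccl4, chemokines that killer cells and macrophages release, had 0.79 (SE 0.26) and 0.63 (SE 0.28), and Cxcr6, a receptor of tissue T cells, had 0.53 (SE 0.25).

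The genes of interferon gamma signalling did not follow Ifng as a group. Of 15 genes 11 were above 0, with a median of 0.070. Ciita, the activator of MHC class II genes, had 0.81 (SE 0.27), and Jak2, a kinase of the receptor, had -0.24 (SE 0.091). Ido1, a tryptophan-degrading enzyme that interferon gamma induces, averaged -1.56 ± 2.26 (SD, n = 7) in Wsh and 1.05 ± 1.51 (SD, n = 8) in B6, a difference of -2.61 (SE 0.90, limma adjusted p = 0.291).

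**Figure D5:**
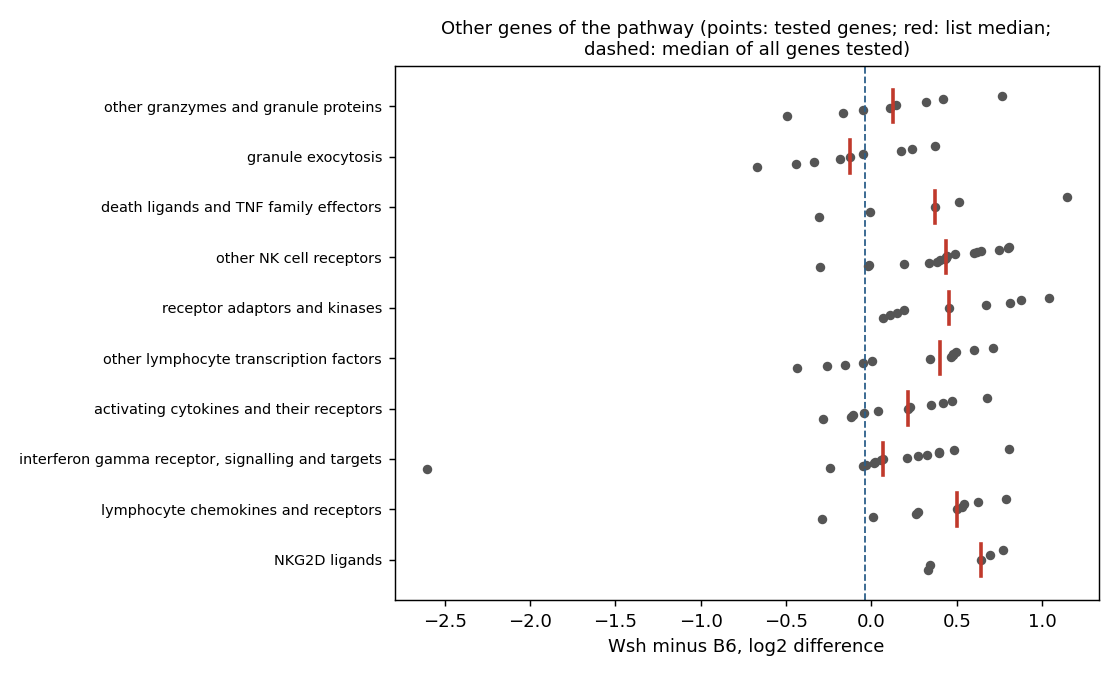
Difference between groups (Wsh minus B6, log2) of every tested gene in 10 lists of the pathway, 1 point a gene, with the list median in red and the median of all genes tested, -0.035, as a dashed line. The medians of NKG2D ligands (0.64), chemokines (0.50), adaptors (0.46) and NK cell receptors (0.44) lie right of that line, that of granule exocytosis (-0.13) left of it, and Ido1 is the point at -2.61.

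Promoter sequences were read for T-box and RUNX motifs, because 2 members are T-box factors and RUNX factors act in the same cells. RefSeq (GRCm38.p6) gave 11 promoters for the 10 genes, each from 250 bases before to 50 after the start, with a pair of starts for Ncr1. The letters GGTGTG or CACACC, a core of the T-box site, were found in 2 of the 11 promoters, those of Gzmk and Nkg7, and in 19.0% of all 32851 promoters of that length. The letters TGTGGT or ACCACA, a core of the RUNX site, were in 7 of the 11, or 6 of the 10 genes since the starts of Ncr1 overlap and both count, and in 16.8% of all. The AP-1 letters TGANTCA, which read the same on the other strand, were in 2 of the 11 and 7.81% of all. A match is a description of the letters and not a site.

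The promoters of the 2 neighbouring granzymes on chromosome 13 and of Nkg7 are shown to set the gene that passed beside its neighbour and beside the member closest to Tbx21. Capitals mark the T-box letters and the RUNX letters, and they do not overlap in these 3 sequences. In Gzmk (chr13:113180916-113181215, minus strand) the T-box letters stand at position -75. Gzma (chr13:113100932-113101231, minus strand) has RUNX letters at -50 and no T-box letters, and Nkg7 (chr7:43436888-43437187, plus strand) has RUNX letters at -83 and T-box letters at -13:
Gzmk promoter: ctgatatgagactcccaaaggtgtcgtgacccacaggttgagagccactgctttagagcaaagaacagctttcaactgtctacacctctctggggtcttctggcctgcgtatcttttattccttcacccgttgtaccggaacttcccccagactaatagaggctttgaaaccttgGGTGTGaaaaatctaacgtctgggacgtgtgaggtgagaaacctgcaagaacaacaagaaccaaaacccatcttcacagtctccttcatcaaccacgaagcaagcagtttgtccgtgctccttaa
Gzma promoter: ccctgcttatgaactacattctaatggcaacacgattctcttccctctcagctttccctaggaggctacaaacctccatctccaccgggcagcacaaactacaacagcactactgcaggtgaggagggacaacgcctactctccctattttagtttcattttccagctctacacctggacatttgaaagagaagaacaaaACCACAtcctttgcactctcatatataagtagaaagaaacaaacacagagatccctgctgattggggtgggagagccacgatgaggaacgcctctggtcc
Nkg7 promoter: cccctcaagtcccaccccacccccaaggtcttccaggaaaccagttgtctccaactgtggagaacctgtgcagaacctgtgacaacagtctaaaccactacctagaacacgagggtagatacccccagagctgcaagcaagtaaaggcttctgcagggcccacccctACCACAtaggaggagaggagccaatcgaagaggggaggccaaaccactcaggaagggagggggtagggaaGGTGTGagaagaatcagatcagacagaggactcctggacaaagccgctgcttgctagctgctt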

How the data were processed

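RNA of 15 mouse mammary tumours was measured on 1-colour Agilent arrays. Per the file headers, Agilent Feature Extraction 10.7.3.1 read the spots, and the deposited processed intensity has its background subtracted but is not scaled between arrays. That program and limma are also in the submitters' processing notes. A table of log2 values that the authors deposited came without its background step, scale and centring (not given in the sources used here). Its 15 columns each followed the rank order of their own array, and it served as an alternative.

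Of 62976 spots, 59305 were not controls and carried 56605 probes. Outlier spots were left out and spots of a probe averaged. Values are log2 of the processed intensity minus each array's 75th percentile over probes. Filtering kept 34346 probes, those well above background on 7 arrays or more, and the kept probe with the highest mean stood for its gene. Probe positions are those of the files (mm9), without exon or UTR annotation. Names came from a RefSeq table of GRCm38.p6 by accession (32994 probes), symbol (10224) or synonym (520), and 12867 kept the name in the files. The groups were compared in R 4.3.3 using lmFit and eBayes of limma 3.58.1, two-sided, with Benjamini-Hochberg adjustment over 22342 genes. Single values were tested by exact permutation over arrays, and pairs of genes by 100000 permutations. In simulated data of this comparison with 22342 genes, 78% of 100 genes changed by a log2 of 1 and 99% of 100 changed by 2 were called, and 0.0632% of 22142 unchanged genes. Those shares do not hold for any 1 member, since the SE ran from 0.14 for Prf1 to 0.43 for Ifng. Eomes, with a difference of 1.19 (SE 0.41), did not pass.

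The members and gene lists were chosen with earlier results of these data known. From each list the text names some of the up to 4 tested genes of the largest moderated t, and marker genes past the threshold, besides every member, the 5 most like genes and tested neighbours within 250 kb. Alternatives were normexp correction (offset 50), quantile normalization, scaling to the median, no filter or a filter on all 15 arrays, averaging of probes per gene, blocks for slide and for replicate number, single slides, array weights, trend and robust options, the deposited values, no muscle arrays, marker means as covariates, and each array left out. The number of arrays limits the precision.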

Additional observations from a re-analysis of the deposited data

Results flagged for a closer look

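In 26 groups of member probe values tested for a single stray array, 1 was found, where chance gives about 1 in 20. Gzmb on Wsh 7 was -1.93, against -1.36 on the next lowest Wsh array, a gap of 0.655 of the range of the group, past Dixon's 95% critical value. Without Wsh 7 the Gzmb difference was -0.056.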

How the results depend on the processing

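The differences of Gzmb, Gzmk, Nkg7, Eomes, Tbx21, Ifng and Klrk1 kept their sign under every alternative run. That of Gzma turned to -0.14 on the second slide alone and to -0.065 with array weights, and that of Prf1 to -0.045 on the first slide alone. The number of members past the limma threshold, 1 as reported, was 0 with normexp correction, quantile normalization, scaling to the median, no filter, the filter on all 15 arrays, either slide alone, the replicate block, the deposited values, no muscle arrays, the T cell covariate and the muscle and adipocyte covariates, and 0 to 1 with an array left out. In the reported fit 4 members had an unadjusted limma p under 0.05, against 1 to 5 in those settings and 3 or 4 with an array left out. The filter on all 15 arrays left Gzmk, Eomes and Ifng untested.

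The number of genes past the threshold, 85 as reported (28.2% of them higher in Wsh), was 48 with scaling to the median, 25 with no filter (52% higher), 2 on the first slide, 1 on the second, 15 with the replicate block, 188 with array weights, 26 without the 5 muscle arrays, 38 with the T cell covariate, 137 with the muscle and adipocyte covariates, and 26 to 101 with an array left out. The lowest was without Wsh 4 and the highest without B6 7. The causes were not tested. Scaling to the median moved the median difference of all genes to -0.11, from which member differences there are to be read. The dim signals of Gzmk, Eomes, Ifng and Ncr1 limit the size that can be given for them.

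The labels give replicate numbers without saying that a number links a Wsh and a B6 array. Same-numbered arrays deviated with r between -0.24 and 0.21 over 7 pairs, 1 of them over 0.1, and no array correlated best with its own number. The replicate block, which drops the unpaired B6 8, gave 1.25 for Gzmk (limma adjusted p = 0.0712).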
